A study of Mus musculus with 15 samples.

Results

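The genes described here make and control fatty acids and cholesterol in the gastrocnemius, a calf muscle, of male mice with and without Cpt1b in skeletal muscle. They were the rows of the deposited count table whose symbol is one of 32 named genes of lipogenesis, desaturation and cholesterol synthesis, and 30 of the 32 were present among 13602 gene symbols. Fads2 has no row in the table used here, and Msmo1 has none under that symbol. Its former symbol Sc4mol has one, which was counted with the related genes below. Of the 30 genes, 9 are regulators, 8 act in fatty acid synthesis, elongation and desaturation, and 13 act in the sterol pathway.

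The controls were 8 wild-type mice that carry the floxed gene, and the other group was 7 mice with the skeletal muscle knockout of Cpt1b, which encodes the enzyme that admits long-chain fatty acids to mitochondria. All were male, and neither the Cre driver nor the age is given in the sources used here beyond 12 to 14 weeks of feeding, described as chow in the titles and series text but as 45% HFD in the diet field of every sample. RNA was measured by SAGE, which counts 1 short sequence per transcript, taken close to its 3' end, so counts do not scale with transcript length. Levels are tag counts scaled to library size by TMM (CPM), given as mean ± SD over n = 8 control or n = 7 knockout libraries. Fold changes are the log2 of knockout over control with the standard error.

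Cells make fatty acids from acetyl-CoA through fatty acid synthase, lengthen them with the Elovl elongases and add double bonds with the Scd and Fads desaturases. Cholesterol comes from the same acetyl-CoA through mevalonate, squalene and lanosterol. Both branches are driven by SREBP transcription factors, which are made as membrane proteins of the endoplasmic reticulum. Scap escorts them to the Golgi, the Insig proteins hold Scap back when sterols are plentiful, and the proteases encoded by Mbtps1 and Mbtps2 release the active factor. The SREBP-1 product of Srebf1 acts mainly on fatty acid genes, and the SREBP-2 product of Srebf2 mainly on sterol genes. The liver X receptors, encoded by Nr1h2 and Nr1h3, sense oxysterols and activate Srebf1.

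In knockout muscle 3 of the 26 testable members rose and none fell (edgeR quasi-likelihood test, Benjamini-Hochberg adjusted p under 0.05 over all 11062 tested genes). They were Srebf1, Insig1 and the desaturase gene Scd2. Across all tested genes 1.67% were called higher and 0.497% lower. No sterol pathway member was called in either direction. The median log2 fold change was 0.01 over the 9 tested regulators, -0.02 over the 6 tested fatty acid genes and 0.09 over the 11 tested sterol genes, beside 0 over all tested genes. Of the 26 tested members 13 had a positive and 13 a negative fold change. An unadjusted p under 0.05 was reached by 4 higher members and by 0 lower ones, beside 846 higher and 655 lower of all 11062 tested genes. Elovl1, Elovl6, Sqle and Lss were too scarce to test. The 3 calls were also made by DESeq2, by limma voom, without control replicate 7 and knockout replicate 4, and after adding a surrogate variable to the model, the last 2 of these chosen after the data were examined. With library size as the only scaling, and in 10 of the 15 fits that left out 1 library, Insig1 was not among the calls.

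**Figure D1:**
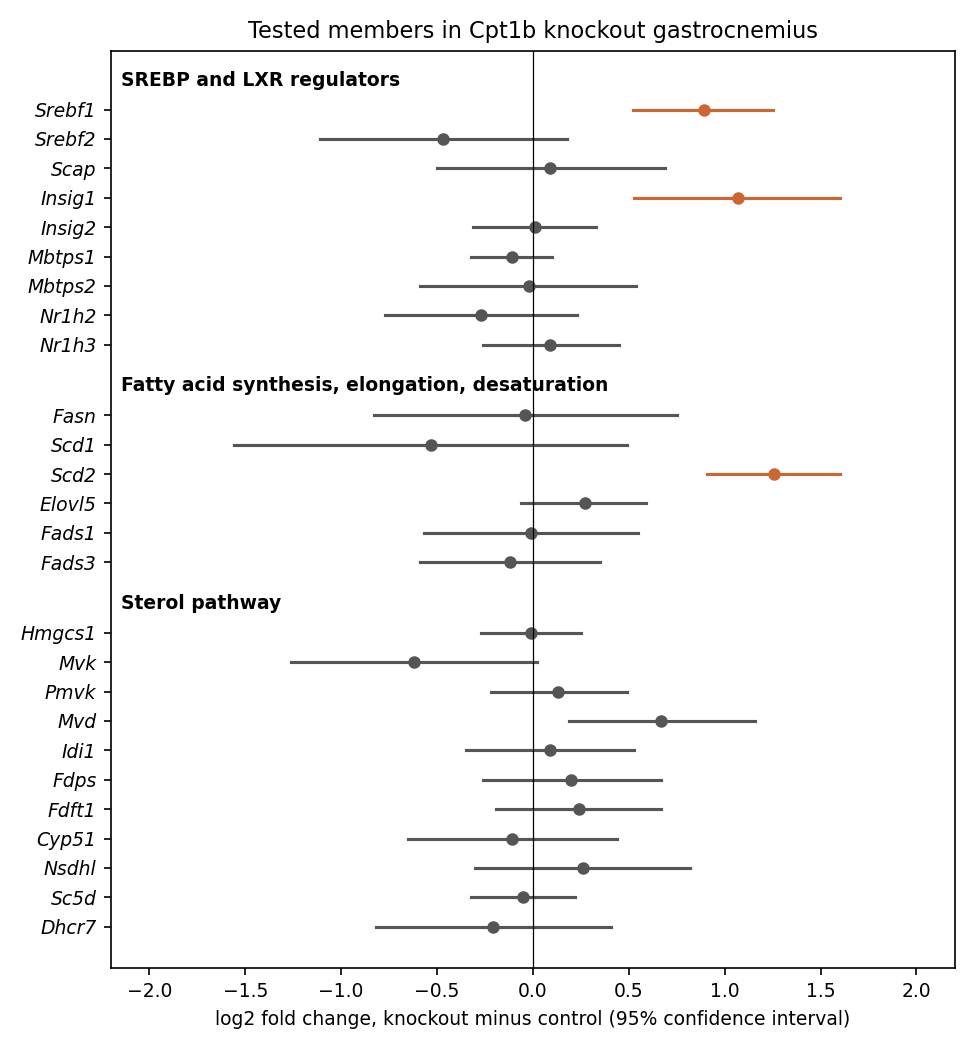
Log2 fold change (x axis, knockout minus control) of each of the 26 tested members (y axis), grouped by role, with bars for the 95% confidence interval. The 3 called genes, drawn in orange, lie at 0.89 (Srebf1), 1.07 (Insig1) and 1.26 (Scd2), and the other 23 range from -0.62 to 0.67.

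Total tag counts ran from 8334436 to 19397255 per library. Cpt1b itself averaged 7.64 ± 3.17 CPM in the controls against 3.79 ± 1.64 CPM in the knockouts (log2 -1.03 ± 0.31, edgeR adjusted p = 0.103, two-sided exact permutation p = 0.00389), and whether its tag lies in the deleted part is not given in the sources used here. Muscle fibre markers were abundant in every library, with sums of 113000 to 175000 CPM in controls and 99200 to 160000 CPM in knockouts (8 of 8 in the table; medians 165000 and 125000 CPM; two-sided exact permutation p = 0.0376, adjusted over 8 marker sums 0.15). Of these markers the fast troponin gene Tnnt3 was called lower, with every knockout below every control (log2 -0.65, edgeR adjusted p = 0.00629), and the part of fibre RNA in the results below was not tested. The 6 fibroblast markers summed to 2180 to 3850 CPM in controls and 1230 to 3080 CPM in knockouts (two-sided exact permutation test, p adjusted over 8 marker sums = 0.0498). None of the 6 was called, and they did not move alike. The log2 value was -1.03 for Col1a1, which had the highest mean of the 6, -0.64 for Col1a2, -0.28 for Col3a1 and -0.26 for Dcn. It was 0.03 for Pdgfra and 0.16 for Lum. Sums of the macrophage, endothelial and erythroid markers overlapped between the groups (adjusted p = 0.675, 0.342 and 0.675 by the same test). Control replicate 7 and knockout replicate 4 had the highest scores on the leading principal component, which held 44.6% of the variance. In whole muscle, fewer cells of a type and less RNA per cell cannot be told apart.

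The tags that were counted decide which relatives can be told apart, so the predicted tags of the 3 gene pairs compared below are shown. Each is the 27 bases that start at the CATG nearest the 3' end of the principal transcript (GENCODE M21, GRCm38). CATG, in capitals, is the usual anchoring site of SAGE, although the labels do not name the enzyme. All 6 lie in the 3' untranslated region.
Srebf1: CATGgctcataacccttgaggggcctt
Srebf2: CATGtgctggacgtaggttttcaataa
Insig1: CATGtccgtgctaagtttgcagcattg
Insig2: CATGctttcctatagtgtcaggtagac
Scd1: CATGaaaaccattgcaggaaacctttc
Scd2: CATGcaggactccgtttccttccttgg
The Srebf1 tag lies at chr11:60199417-60199443 (minus strand), the Insig1 tag at chr5:28078586-28078612 (plus strand), the Scd2 tag at chr19:44306701-44306727 (plus strand) and the Scd1 tag at chr19:44394616-44394642 (minus strand). The tags of Scd1 and Scd2, 2 desaturase genes of the same chromosome, differ at 16 of 27 bases. Those of Insig1 and Insig2 differ at 17, and those of Srebf1 and Srebf2 at 22. None of these 6 tags was predicted for another gene. The Srebf1 tag was shared by 2 of its 3 coding transcripts, so the counts do not separate those 2. Of the 32 named genes 30 had a tag predicted for no other gene. The tag of Fdps was also predicted for 4 other loci (Gm3571, Gm5873, Gm7979 and Gm48326) and that of Mbtps2 for Yy2, so the values of both genes are uncertain.

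Among the regulators, Srebf1 rose in knockout muscle. The gene lies on chromosome 11 from 60199089 to 60222581. Its level ran from 155 to 223 CPM in controls (median 185) and from 213 to 557 CPM in knockouts (median 334). Knockout replicate 7 was highest at 557 CPM, and 6 of the 7 knockouts lay above the highest control, the exception being knockout replicate 4 at 213 CPM. The mean rose from 186 ± 20.6 to 345 ± 116 CPM, a log2 fold change of 0.89 ± 0.17 (95% confidence interval 0.52 to 1.25, edgeR adjusted p = 0.00693). Leaving out any 1 library kept the value between 0.73 and 0.98, with an adjusted p of at most 0.0205.

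Srebf2, the sterol-directed paralogue, had few tags and was not called. Library values ran from 1.09 to 3.35 CPM in controls (median 1.65) and from 0.476 to 2 CPM in knockouts (median 1.39). The groups overlapped, and 2 knockouts lay below every control. The log2 difference was -0.47 ± 0.31 (interval -1.11 to 0.18, edgeR adjusted p = 0.521), resting on 10 to 27 tags per library. The ratio of the genes differed between the groups. The log2 ratio of Srebf1 to Srebf2 within a library was 6.60 ± 0.52 in controls and 7.87 ± 0.55 in knockouts. All 7 knockouts lay above every control (difference 1.26, two-sided exact permutation test, p = 0.000311, adjusted p = 0.00186 over the 6 gene pairs compared).

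Insig1, whose product retains Scap and SREBP in the endoplasmic reticulum and which is itself an SREBP target, rose as well. The gene lies on chromosome 5 from 28071363 to 28078662. Its level ran from 7.20 to 19.8 CPM in controls (median 9.80) and from 13.4 to 39.5 CPM in knockouts (median 26.0). Of the 7 knockouts 4 lay above the highest control, and the other 3 lay among the upper controls. The mean rose from 11.8 ± 4.67 to 24.7 ± 9.37 CPM (log2 1.07 ± 0.26, interval 0.53 to 1.6, edgeR adjusted p = 0.0331).

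The call for Insig1 was close to the threshold. It was lost with library size as the only scaling (adjusted p = 0.0694) and in 10 of the 15 fits that left out 1 library, namely control replicate 1, 2, 4, 5, 6 or 8 or knockout replicate 2, 4, 5 or 7 (edgeR adjusted p 0.0628 to 0.092), while the log2 value stayed between 0.91 and 1.22. Insig1 also varied with the leading principal component inside each group. In relations with the component, the 2 farthest libraries are those of a group farthest from its median score. Pearson's r was 0.94 in the 8 controls (exact permutation p = 0.000769, adjusted p = 0.0128 over 28 relations; Spearman's rho 0.95, p = 0.00114, adjusted p = 0.0319; r = 0.74 without the 2 farthest libraries). In the 7 knockouts r was 0.90 (exact permutation p = 0.00575, adjusted p = 0.0296; rho 0.86, p = 0.0238, adjusted p = 0.0952; r = 0.91 without the 2 farthest). The component score averaged -12.1 ± 31.7 among controls and 13.9 ± 33.3 among knockouts (exact permutation p = 0.145). Without control replicate 7 and knockout replicate 4, the libraries with the highest scores, the log2 value of Insig1 was 1.05 (edgeR adjusted p = 0.0108). With the surrogate variable it was 0.77 (adjusted p = 0.00044). For Srebf1 the same correlation was -0.19 among controls and -0.32 among knockouts (exact permutation p = 0.646 and 0.485, adjusted p = 0.723 and 0.591; rho -0.17 and -0.21, p = 0.703 and 0.662, adjusted p = 0.856 and 0.846; r = 0.08 and 0.37 without the 2 farthest).

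Insig2, which encodes the other Insig isoform, was not called. Its level was 57.8 ± 13.6 CPM in controls and 58.2 ± 7.51 CPM in knockouts (log2 0.01 ± 0.15, interval -0.31 to 0.33, edgeR adjusted p = 0.978). The log2 ratio of Insig1 to Insig2 averaged -2.33 ± 0.77 among controls and -1.31 ± 0.69 among knockouts, with 4 of 7 knockouts above every control (difference 1.02, exact permutation p = 0.0225, adjusted p = 0.0451 over the 6 pairs). That adjusted p rose above 0.05 in 9 of the 15 comparisons without 1 library (control replicate 1, 2, 4, 5 or 6 or knockout replicate 2, 4, 5 or 7), reaching 0.0926.

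The remaining regulators were not called. Scap averaged 1.1 ± 0.361 CPM in controls against 1.2 ± 0.408 CPM in knockouts (log2 0.09, interval -0.50 to 0.69). The site-1 protease gene Mbtps1 had the narrowest interval of the regulators, -0.32 to 0.10 around a log2 value of -0.11, at 46.0 ± 4.28 and 42.6 ± 3.48 CPM. The site-2 protease gene Mbtps2 had a log2 value of -0.02 (interval -0.59 to 0.54). Of the liver X receptor genes, Nr1h2 had a log2 value of -0.27 (interval -0.77 to 0.23) and Nr1h3, which is also expressed by macrophages and adipocytes, one of 0.09 (interval -0.26 to 0.45). The ratio of Nr1h3 to Nr1h2 differed by 0.39 on the log2 scale and that of Mbtps1 to Mbtps2 by -0.10, and neither passed (exact permutation p = 0.254 and 0.736, adjusted p = 0.381 and 0.883).

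**Figure D2:**
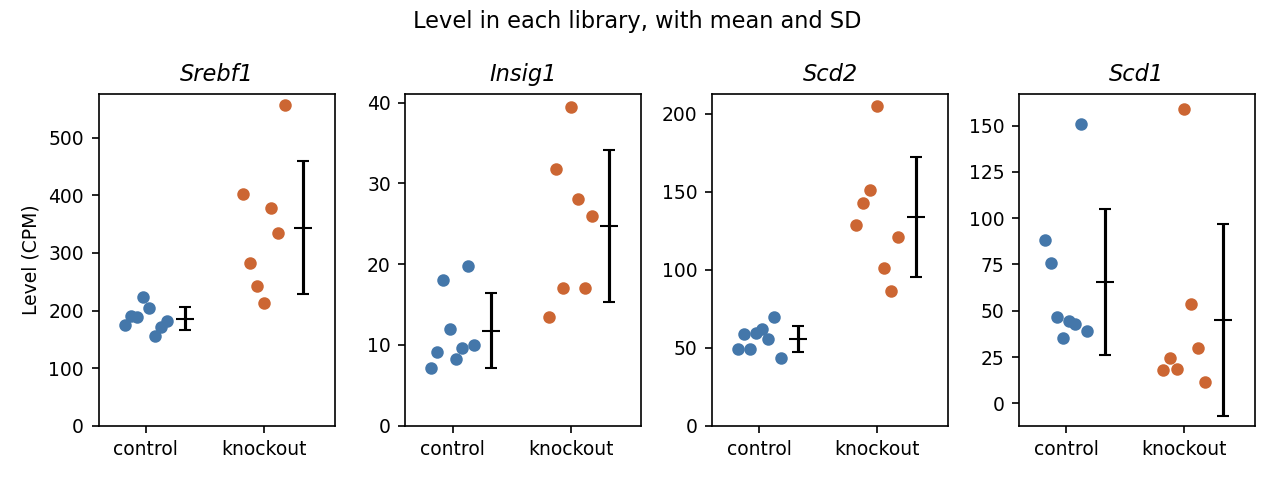
Level in CPM (y axis) of Srebf1, Insig1, Scd2 and Scd1 in each library (points) of the control and knockout groups (x axis), with the mean and SD beside them in black. All knockout libraries of Scd2 lie above the highest control at 69.6 CPM, whereas Scd1 spreads from 11.7 to 159 CPM in the knockouts.

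Among the fatty acid genes Scd2 rose. It encodes a stearoyl-CoA desaturase, which places the double bond that turns stearate into oleate, and lies on chromosome 19 from 44293674 to 44306864. Its level ran from 43.7 to 69.6 CPM in controls (median 57.3) and from 86.4 to 205 CPM in knockouts (median 129). All 7 knockouts exceeded the highest control, a separation in this direction shown by 0.967% of all tested genes (0.226% had every knockout below every control). The mean rose from 55.8 ± 8.36 to 134 ± 38.6 CPM (2.39-fold, log2 1.26 ± 0.16, interval 0.91 to 1.6, edgeR adjusted p = 0.000128). Without any 1 library the log2 value stayed between 1.12 and 1.34, with an adjusted p of at most 0.000572. Scd2 is also abundant in the Schwann cells of nerve, whose markers summed to 48.7 to 146 CPM in controls and 48.3 to 143 CPM in knockouts (8 of 9 in the table, 5 tested, none called). The defining Schwann genes Sox10 and Egr2 each averaged below 1 CPM in both groups.

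Scd1, the isoform typical of liver and fat tissue, did not pass the test, and its libraries were widely spread. The gene lies on chromosome 19 from 44394455 to 44407879. Its level ran from 35.5 to 151 CPM in controls (median 45.5) and from 11.7 to 159 CPM in knockouts (median 24.5). Of the 7 knockouts 5 lay below the lowest control, while knockout replicate 4 at 159 CPM lay above the highest, control replicate 7. The means were 65.4 ± 39.3 and 45.0 ± 51.9 CPM (log2 -0.53 ± 0.49, interval -1.56 to 0.49, edgeR adjusted p = 0.635). Without knockout replicate 4 the log2 value was -1.33 (adjusted p = 0.0779) and without control replicate 7 it was -0.23 (adjusted p = 0.774). With both left out it was -1.04 (adjusted p = 0.0626).

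The ratio of the desaturase genes differed between the groups. The log2 ratio of Scd2 to Scd1 was -0.06 ± 0.66 in controls (-1.11 to 0.74) and 2.07 ± 1.15 in knockouts (0.37 to 3.35). Of the 7 knockouts 6 lay above every control, the exception being knockout replicate 4. The difference of 2.14, a 4.40-fold shift, passed the exact permutation test (p = 0.000622, adjusted p = 0.00186 over the 6 pairs), and it stayed between 1.93 and 2.42 without any 1 library (adjusted p at most 0.00699).

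**Figure D3:**
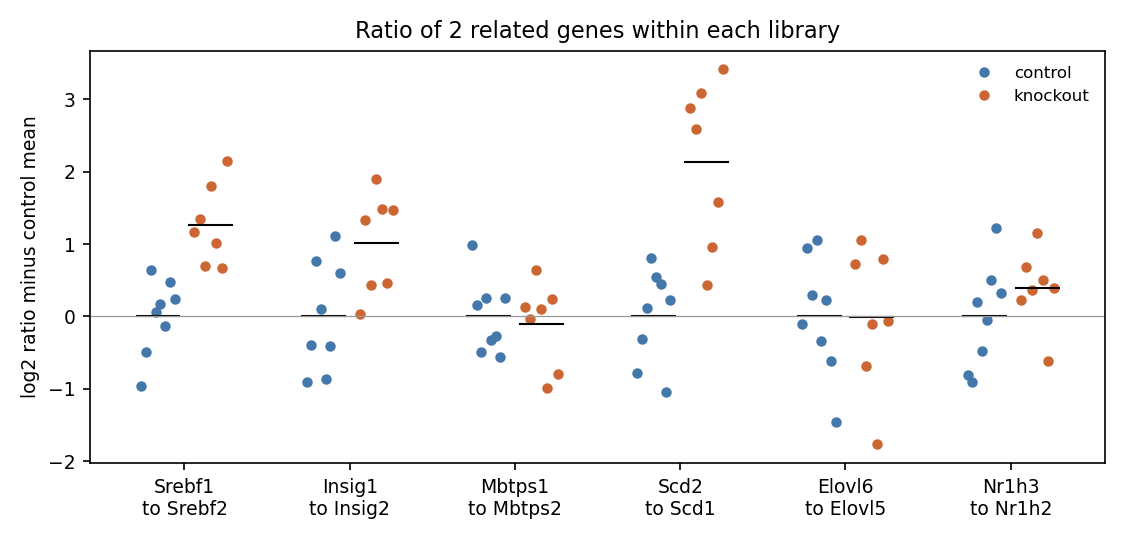
Log2 ratio of 2 related genes within each library (points), minus the control mean of that ratio (y axis), for the 6 gene pairs (x axis), with the group mean as a black line. All knockouts lie above the controls for Srebf1 to Srebf2, and 6 of 7 do for Scd2 to Scd1.

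Scd1 moved with a sum of adipocyte markers. Of 8 adipocyte markers 7 were in the table, and Fabp4, which endothelium also expresses, was left out of the sum. The other 6 summed to 42.5 to 109 CPM in controls and 31.1 to 196 CPM in knockouts (p = 0.681 by the exact permutation test, 0.681 adjusted over 8 marker sums), with the highest sum in knockout replicate 4. Of the 6, leptin (Lep) was called lower and none was at 0 in any library. They did not move alike. The log2 value was 0.82 for Cidec, 0.19 for Retn, 0 for Adipoq, -0.11 for Cfd, -0.39 for Plin1 and -1.83 for Lep. Adipoq, Cfd and Cidec had the highest means in both groups, so the sum follows them most. The Pearson correlation of Scd1 with this sum was 0.88 in controls (n = 8, exact permutation p = 0.00397, adjusted p = 0.0278 over 28 relations; rho 0.86, p = 0.0107, adjusted p = 0.0689). In knockouts it was 0.93 (n = 7, exact permutation p = 0.00635, adjusted p = 0.0296; rho 0.79, p = 0.048, adjusted p = 0.149). Without the 2 farthest libraries, those of a group farthest from its median log2 sum, r fell to 0.53 and 0.57. Both relations therefore rest in part on those libraries. The part of adipocyte RNA in the Scd1 values was not tested.

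Fasn, the fatty acid synthase that makes palmitate, was not called. Levels ran from 2.87 to 13.2 CPM in controls (median 5.05) and from 2.28 to 14.0 CPM in knockouts (median 4.90). The ranges nearly coincided (log2 -0.04 ± 0.37, interval -0.83 to 0.75, edgeR adjusted p = 0.968). Its correlation with the adipocyte sum was 0.70 in controls (exact permutation p = 0.0559, adjusted p = 0.142; rho 0.74, p = 0.0458, adjusted p = 0.149; r = 0.62 without the 2 farthest). In knockouts it was 0.89 (exact permutation p = 0.00813, adjusted p = 0.0314; rho 0.89, p = 0.0123, adjusted p = 0.0689; r = 0.94 without the 2 farthest). For Scd2 the correlation with the sum was 0.44 among controls and 0.45 among knockouts (exact permutation p = 0.282 and 0.314, adjusted p = 0.488 for each; rho 0.60 and 0.11, p = 0.132 and 0.84, adjusted p = 0.309 and 0.905; r = 0.79 and -0.65 without the 2 farthest). The 4 knockouts with the lowest adipocyte sums (31.1 to 53.3 CPM) held 86.4 to 151 CPM of Scd2, and the others held 101 to 205 CPM. The part of adipocyte RNA in the Fasn and Scd2 values was not tested.

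**Figure D4:**
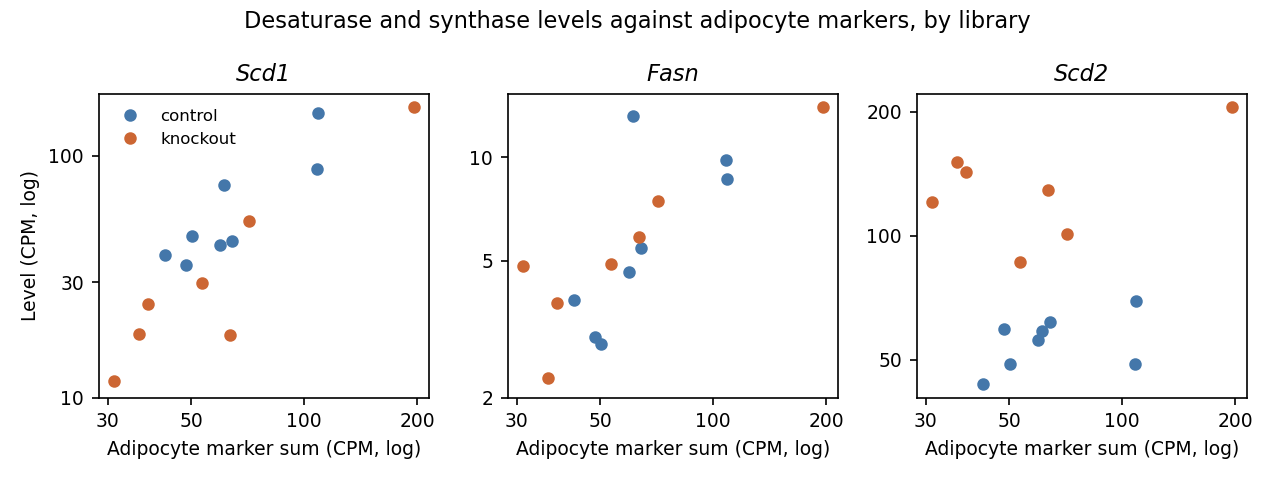
Level of Scd1, Fasn and Scd2 (y axis, CPM, log scale) against the sum of 6 adipocyte markers without Fabp4 (x axis, CPM, log scale), 1 point per library. Scd1 is highest in the libraries with the highest sum of each group (109 CPM among controls, 196 CPM among knockouts), and the knockout points of Scd2 lie at 86.4 CPM or above.

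Elongases and the front-end desaturases were not called. Elovl5, which lengthens polyunsaturated fatty acids, averaged 6.15 ± 1.24 CPM in the controls (4.64 to 8.65) against 7.40 ± 1.28 CPM in the knockouts (6.05 to 9.57), and the groups overlapped (log2 0.27 ± 0.15, interval -0.06 to 0.59, edgeR adjusted p = 0.464). Fads1, the delta-5 desaturase gene, had a log2 value of -0.01 (interval -0.57 to 0.55), with knockout replicate 4 at 7.48 CPM and the other knockouts between 2.04 and 3.11 CPM. Without that library its log2 value lay at -0.41. Fads3 had a log2 value of -0.12 (interval -0.59 to 0.35). Elovl1, an elongase of saturated and monounsaturated chains, had 2 to 18 tags per library and Elovl6, which turns palmitate into stearate, 0 to 11 tags, so no difference could be judged at this depth. The ratio of Elovl6 to Elovl5 was counted among the 6 gene pairs and is not read for the same reason.

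The sterol pathway held no called member. Of its 11 tested genes 6 had a positive and 5 a negative fold change, and DESeq2 and limma voom called 0 as well. An unadjusted p under 0.05 was reached by 1 of them, a higher one, beside 846 higher and 655 lower of all 11062 tested genes. For 9 of the 11 the 95% confidence interval lay within 1 log2 unit of 0, as it did for 9158 of all 11062 tested genes. Hmgcs1, the cytosolic HMG-CoA synthase at the entry of the pathway and an SREBP target, was among the most tightly measured. Levels ran from 21.5 to 29.8 CPM in controls (median 27.3) and from 18.9 to 30.1 CPM in knockouts (median 27.4). The means were 26.4 ± 3.02 and 26.2 ± 4.19 CPM (log2 -0.01 ± 0.12, interval -0.27 to 0.25, edgeR adjusted p = 0.973).

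Of the mevalonate-using enzymes, Mvd and Mvk had the largest log2 values and went in opposite directions. Mvd, the mevalonate diphosphate decarboxylase, ran from 1.87 to 4.88 CPM in controls (median 2.63) and from 3.23 to 6.69 CPM in knockouts (median 5.14). Of the 7 knockouts 4 lay above every control (log2 0.67 ± 0.23, interval 0.19 to 1.16, unadjusted p = 0.00879, edgeR adjusted p = 0.171). Without control replicate 7 it passed, with a log2 value of 0.81 and an adjusted p of 0.0469. Mvk, the mevalonate kinase, ran from 13.5 to 73.7 CPM in controls (median 45.7) and from 13.7 to 47.0 CPM in knockouts (median 27), and the knockout range lay inside the control range (log2 -0.62 ± 0.30, interval -1.26 to 0.02, edgeR adjusted p = 0.387).

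Both genes varied with the leading component of the libraries, which was computed from all tested genes, these included. The share of genes that follow it as closely was not computed. For Mvk, r was -0.97 among controls and -0.96 among knockouts (exact permutation p = 0.000918 and 0.00357, adjusted p = 0.0128 and 0.0278; rho -0.83 and -0.89, p = 0.0154 and 0.0123, adjusted p = 0.0718 and 0.0689; r = -0.77 and -0.87 without the 2 farthest libraries). For Mvd it was 0.85 and 0.86 (exact permutation p = 0.00898 and 0.0135, adjusted p = 0.0314 and 0.042; rho 0.71 and 0.93, p = 0.0576 and 0.00675, adjusted p = 0.161 and 0.0689; r = 0.27 and 0.97 without the 2 farthest). The control relation of Mvd rests on the 2 farthest controls.

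Pmvk, the phosphomevalonate kinase, had a log2 value of 0.13 (interval -0.22 to 0.49). The isomerase gene Idi1 had one of 0.09 (interval -0.35 to 0.53), the farnesyl diphosphate synthase Fdps 0.20 (interval -0.26 to 0.67) and the squalene synthase Fdft1 0.24 (interval -0.19 to 0.67). Of the enzymes that shape the sterol rings, the lanosterol demethylase Cyp51 had a log2 value of -0.11 (interval -0.65 to 0.44). The sterol dehydrogenase Nsdhl ran from 0.489 to 2.44 CPM in controls and from 1.22 to 2.67 CPM in knockouts (log2 0.26, interval -0.30 to 0.82). The sterol desaturase Sc5d had a log2 value of -0.05 (interval -0.32 to 0.22), and the reductase Dhcr7, which makes cholesterol in the last step, one of -0.21 (interval -0.82 to 0.41). Squalene epoxidase (Sqle) had 0 to 12 tags and lanosterol synthase (Lss) 0 to 8 tags per library, too few for a comparison. Msmo1, listed as Sc4mol, stood at 3.45 ± 1.09 and 3.74 ± 1.24 CPM (log2 0.12, interval -0.38 to 0.63).

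**Figure D5:**
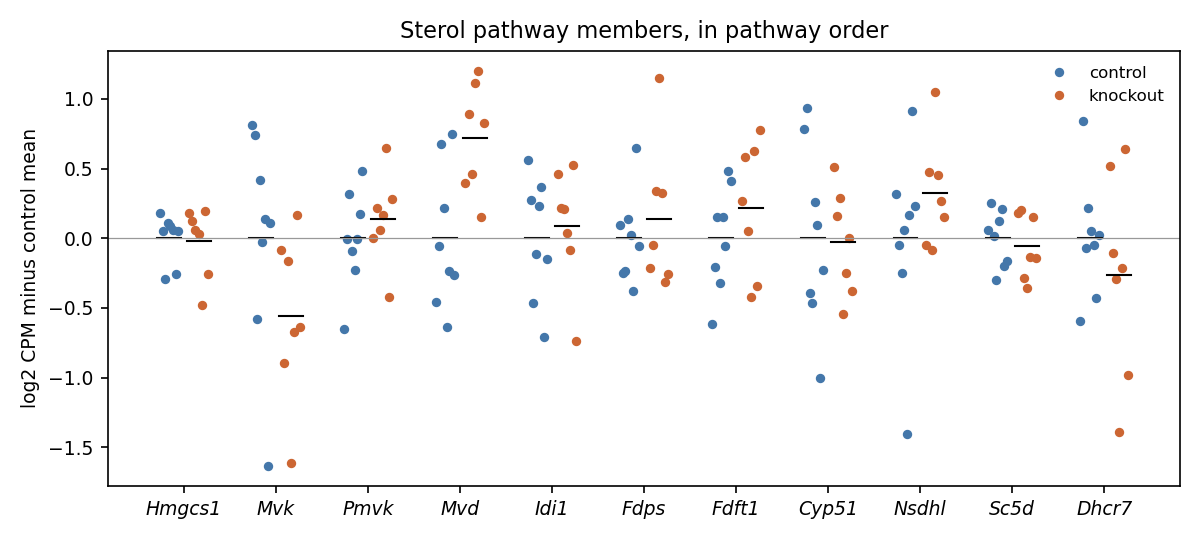
Log2 CPM of the 11 tested sterol pathway members (x axis, in pathway order) in each library (points), minus the control mean of that gene (y axis), with the group means as black lines. The control and knockout points overlap for every gene, and Hmgcs1 and Sc5d have the narrowest spread.

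The promoters of the members that rose can be set beside that of a sterol gene that was not called. Windows from 250 bases before to 50 after the transcription start were taken from RefSeq (GRCm38.p6), which held 36 windows for 26 of the 32 genes. Fads1, Fdft1, Fdps, Scd1, Scd2 and Sqle had no window. The motifs, searched on both strands, were a sterol response element (TCACNCCAC), the NF-Y box (CCAAT), the Sp1 box (GGGCGG) and the E-box (CACGTG), and matches are in capitals.
Insig1, chr5:28071162-28071461, plus strand: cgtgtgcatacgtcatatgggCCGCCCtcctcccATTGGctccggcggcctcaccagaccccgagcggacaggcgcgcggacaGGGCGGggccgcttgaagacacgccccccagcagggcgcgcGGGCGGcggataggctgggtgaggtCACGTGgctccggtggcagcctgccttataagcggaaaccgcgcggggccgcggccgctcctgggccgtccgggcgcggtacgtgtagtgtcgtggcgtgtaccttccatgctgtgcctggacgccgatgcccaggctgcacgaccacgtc
Srebf1, chr11:60210422-60210721, minus strand, the most downstream of 3 windows of the gene: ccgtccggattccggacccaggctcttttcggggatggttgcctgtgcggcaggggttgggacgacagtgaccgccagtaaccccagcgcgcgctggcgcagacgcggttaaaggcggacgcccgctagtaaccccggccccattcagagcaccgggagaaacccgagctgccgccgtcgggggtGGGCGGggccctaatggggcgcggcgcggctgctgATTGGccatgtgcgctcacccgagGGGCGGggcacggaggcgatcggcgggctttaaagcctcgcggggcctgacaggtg
Hmgcs1, chr13:119690101-119690400, plus strand: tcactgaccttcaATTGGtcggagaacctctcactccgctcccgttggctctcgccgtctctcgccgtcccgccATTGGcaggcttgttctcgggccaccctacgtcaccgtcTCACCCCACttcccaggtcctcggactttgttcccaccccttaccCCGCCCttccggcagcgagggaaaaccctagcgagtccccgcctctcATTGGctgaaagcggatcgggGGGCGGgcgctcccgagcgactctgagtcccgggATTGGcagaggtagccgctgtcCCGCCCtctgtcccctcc
The Insig1 window held 1 NF-Y box, 3 Sp1 boxes and 1 E-box. The Srebf1 window held 1 NF-Y box and 2 Sp1 boxes. The Hmgcs1 window held 1 sterol response element, 4 NF-Y boxes and 3 Sp1 boxes. The sterol response element in these letters occurred in 1.24% of all 32851 windows and in 1 of the 36 member windows, that of Hmgcs1. The NF-Y box occurred in 37.4% of all windows and 55.6% of the member windows, the Sp1 box in 35.7% and 66.7%, and the E-box in 7.15% and 16.7%. A match describes the sequence only, and a missing match says only that these letters are not in the window.

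Of 60 related genes of the same pathways 53 were in the table, 5 of them under older symbols, and with Msmo1 they made 54 genes, of which 52 could be tested. Lpcat3 rose and none fell, beside the 1.67% and 0.497% of all tested genes given above. An unadjusted p under 0.05 was reached by 4 higher and 3 lower genes, beside 846 and 655 of all 11062 tested genes. The median log2 fold change was -0.02. Lpcat3, a liver X receptor target that puts polyunsaturated fatty acids into membrane phospholipids, ran from 7.25 to 8.59 CPM in controls (median 7.54) and from 11.2 to 18.2 CPM in knockouts (median 13.3). Every knockout lay above every control (log2 0.89 ± 0.12, interval 0.64 to 1.15, edgeR adjusted p = 0.000239). The cholesterol exporter genes Abca1 and Abcg1, also liver X receptor targets, were not called (log2 0.26 and 0.20). Mylip and Apoe, listed with these genes, were not called either (log2 0.31 and 0.13). For Mylip 4 of the 7 knockouts lay above every control. The corepressor gene Nrip1 stood at 29.3 ± 10.8 and 15.1 ± 6.64 CPM (log2 -0.96 ± 0.29, edgeR adjusted p = 0.112). It was called by DESeq2 (adjusted p = 0.0395) and by edgeR without control replicate 7 (0.0295) or without knockout replicate 6 (0.0389).

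Acetyl-CoA and malonyl-CoA supply held 10 tested genes and no call. Acss2, which makes acetyl-CoA from acetate, ran from 3.59 to 15.3 CPM in controls and from 7.24 to 33 CPM in knockouts (log2 1.11 ± 0.37, edgeR adjusted p = 0.153), and without control replicate 7 the log2 value was 1.46 (adjusted p = 0.0157). The citrate lyase gene Acly had a log2 value of 0.31 (interval -0.15 to 0.76) and Acaca, the lipogenic acetyl-CoA carboxylase, one of 0.10 (interval -0.16 to 0.36). Mlxipl, the glucose-responsive lipogenic factor, had a log2 value of -0.43 ± 0.18 (adjusted p = 0.302). Of the other elongation and desaturation genes, the smallest p was that of the sphingolipid desaturase gene Degs1 (log2 0.60 ± 0.25, edgeR adjusted p = 0.296). In the other sterol genes none of 9 was called. Of the 14 genes of SREBP control and lipoprotein uptake none was called. Every interval lay within 1 log2 unit of 0, as did those of 9158 of all 11062 tested genes. The lipoprotein receptor gene Lrp1, with the smallest p, had a log2 value of -0.21 (edgeR adjusted p = 0.394).

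Within the groups the 3 genes that rose did not vary together in a way that passed. Here the 2 farthest libraries are those farthest from the group median of the first gene named. The correlation of Srebf1 with Insig1 was -0.01 among controls and -0.28 among knockouts (exact permutation p = 0.983 and 0.541, adjusted p = 0.993 and 0.632; rho -0.10 and -0.50, p = 0.84 and 0.267, adjusted p = 0.905 and 0.574; r = -0.32 and -0.18 without the 2 farthest). That of Srebf1 with Scd2 was 0.13 and -0.61 (exact permutation p = 0.771 and 0.137, adjusted p = 0.83 and 0.32; rho 0.19 and -0.68, p = 0.665 and 0.11, adjusted p = 0.846 and 0.279; r = 0.07 and -0.57 without the 2 farthest). That of Insig1 with Scd2 was 0.29 and 0.45 (exact permutation p = 0.483 and 0.309, adjusted p = 0.591 and 0.488; rho 0.12 and 0.46, p = 0.793 and 0.302, adjusted p = 0.905 and 0.605; r = 0.14 and 0.32 without the 2 farthest). Knockout replicate 4 had the lowest Srebf1 level of the knockouts and the highest levels of Insig1 and Scd2.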

How the data were processed

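RNA from the gastrocnemius of 8 control and 7 knockout mice was measured by SOLiD SAGE, per the labels' protocols. The authors deposited raw tag counts per gene symbol and a table of signal values, which are those counts divided by 1 size factor per library. DESeq2 (version not given) and the builds mm10 and GRCm38.p1 are named in the submitters' processing notes, and the aligner and annotation are not given in the sources used here. Lines with no gene symbol (360 lines) were dropped.

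The quasi-likelihood test of edgeR 4.0.16 (R 4.3.3) was run on the counts of 13602 symbols (TMM scaling, filterByExpr with a minimum count of 10, robust dispersion, group as the only term, Benjamini-Hochberg adjustment, threshold 0.05), of which 11062 passed the filter. Log2 CPM used a prior count of 2. Gene-pair ratios, marker sums and correlations were tested by two-sided exact permutation. Other settings were RLE scaling, library size alone, the authors' size factors, no filter, DESeq2 1.42.0, limma voom 3.58.1, a replicate block, leaving out each library, and, added after the data were examined, a surrogate variable (sva 3.50.0) and leaving out control replicate 7 and knockout replicate 4. The scripts were tested on simulated data.

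The members and lists were chosen with earlier results of these data known. All members are named, with called related genes and the smallest p of each related list without a call. Nrip1, Abca1, Abcg1, Mylip, Apoe, Acly, Acaca and Mlxipl were named in addition, after their values were seen. Some related genes and markers are not reported here by name. Symbols were placed with GENCODE M21 (GRCm38). Each library was taken as a separate mouse, since the number of mice in the labels equals that of libraries. No 2 libraries of a group were alike within sampling noise. Total counts of 8334436 to 19397255 limit genes below about 1 CPM.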

Additional observations from a re-analysis of the deposited data

Results flagged for a closer look

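In 8 of the 62 groups of libraries examined (31 genes in 2 groups), 1 library stood far from the others of its group by Dixon's criterion. For independent, normally distributed values about 1 in 20 would be flagged, or 3.1 groups. The CPM were not log-transformed and all genes were read in the same libraries. The 8 flags are therefore a description and do not measure an excess over chance. Knockout replicate 4 was the high library for Scd1 (159 CPM, next 53.7), Fads1 (7.48, next 3.11), Fdps (14.4, next 8.23) and Nsdhl (2.67, next 1.80). Control replicate 7 was the high library for Scd1 (151 CPM, next 88.1) and Fdps (10.2, next 7.16). These 2 libraries also had the highest adipocyte marker sums of their groups, 196 and 109 CPM, and the highest scores on the leading component, and the part of either in these values was not tested. Control replicate 8 was high for Mbtps1 (54.7 CPM, next 47.0) and control replicate 2 for Dhcr7 (2.69 CPM, next 1.74).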

How the results depend on the processing

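Scd2 and Lpcat3 kept their calls in all 24 other settings and Srebf1 in 23, all but the replicate block. Insig1 kept its call in 12 of 24. Same-numbered libraries did not vary together (r from -0.45 to 0.31, over 0.1 in 3 of 7 pairs, and 1 of 14 libraries correlated best with its own number), so the replicate block rests on a shared number only. Under the block 1 member was called higher in place of 3 (Srebf1 adjusted p = 0.117, Insig1 0.0889), 0 regulators in place of 2, and over all genes 98 higher and 19 lower in place of 185 and 55. With library size alone 1 regulator was called. All genes called higher and lower were 310 and 145 by DESeq2 and 346 and 140 with the surrogate variable, and 148 were lower without control replicate 7 and knockout replicate 4. Related genes called higher were 2, not 1, with the surrogate variable and without those 2 libraries (Acss2 was added), and 1 was called lower, not 0, in those fits and by DESeq2 (Nrip1). The causes were not tested.

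Leaving out 1 library gave 1 to 2 regulators and 0 to 1 sterol genes called higher (Mvd, without control replicate 7), 1 to 2 related genes higher and 0 to 1 lower, and 131 to 311 genes higher and 30 to 154 lower in all. It moved the log2 ratio difference of Insig1 to Insig2 between 0.87 and 1.18, of Mbtps1 to Mbtps2 between -0.22 and 0.05, and of Elovl6 to Elovl5 between -0.21 and 0.29 (0.04 with a prior count of 0.5). Of the 26 tested members 11 changed sign around 0 in some setting, none of them called in any. Over the fits without 1 library the log2 values ran from -0.03 to 0.26 (Scap), -0.07 to 0.08 (Insig2), -0.18 to 0.07 (Mbtps2), -0.40 to 0.19 (Fasn), -0.41 to 0.07 (Fads1), -0.24 to 0.01 (Fads3), -0.05 to 0.06 (Hmgcs1), -0.03 to 0.33 (Fdps) and -0.22 to 0.06 (Cyp51). Insig2 was at 0 with RLE scaling, the authors' size factors and DESeq2, at -0.07 under the block and at -0.02 without the 2 libraries. Library size alone gave 0.03 for Mbtps2, 0.04 for Fasn, 0.05 for Fads1, 0.04 for Hmgcs1 and 0 for Sc5d. Mbtps2 was 0.09 without the 2 libraries. The surrogate variable gave 0.03 for Nr1h2, 0.07 for Hmgcs1, -0.02 for Fdps, 0.23 for Cyp51 and 0.02 for Sc5d. Cpt1b passed with DESeq2, the surrogate variable, and without control replicate 7 alone or with knockout replicate 4.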
